A study of Mus musculus with 22 samples.

Results

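The 45 genes described here are named parts of the cell cycle machinery, picked by symbol from the 54532 genes of each deposited count table. Of these, 12 serve DNA replication or switch it on, and 33 serve mitosis, the separation of the copied chromosomes and of the daughter cells. Bulk RNA sequencing measured them in the joined retina and choroid of mice whose eyes were burnt with a laser, a wound that makes vessels of the choroid grow into the retina (choroidal neovascularisation, CNV). Wild-type C57BL/6J adults gave 16 libraries: 4 of controls without CNV, 4 of day 3 after the burn, 4 of day 7 and 4 of day 14. A separate table holds 3 libraries of Rag2-/-γc-/- mice (Rag2 gc KO) and 3 libraries of Rag2-/- mice (Rag2 KO), all taken at day 3 after the laser. Both of these strains lack T and B cells through the loss of Rag2, and the first also lacks the common gamma chain, Il2rg, which natural killer cells need. The series is about natural killer cells and neutrophils in CNV, and the time course and the pair of strains set those cells against the growth of vessels. Separate animals are not named for the libraries, so p-values measure the spread between these libraries, which may in part be technical. Control replicate 4 carries a title without CNV and a treatment tag with laser, and it was kept as a control.

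Most neurons and glia of the adult retina have left the cell cycle, and the vessels and pigment epithelium under it renew slowly. A cell that divides first loads the MCM helicase on its DNA and makes nucleotides and replication proteins under the control of E2F transcription factors. It then makes the mitotic genes late in the cycle, largely under FOXM1 and the MuvB complex, so transcripts such as Mki67 and Top2a mark dividing cells in most tissues. In laser CNV, endothelial cells, fibroblasts, macrophages and cells of the pigment epithelium are known to divide around the burn.

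Sequences before the start sites were compared between the sets. RefSeq promoters of the GRCm38.p6 build, which is mm10, were found for 39 of the 45 genes, and the 6 others are Aurkb, Tpx2, Mcm4, Kif20a, Ccna2 and Foxm1. Each window of 300 bases, from 250 before to 50 after the start, was searched on both strands. The E2F core was either TTCCCGC or else TTCGCGC or else TTGGCGC or else TTGCCGC. The cell cycle homology region (CHR) was either TTTGAA or else TTCGAA. The NF-Y box was either CCAATCA or else CCAATCG or else CCAATGA or else CCAATGG. The CHR form TTCGAA reads the same on both strands, and an E2F core and an NF-Y box can share letters. The CHR letters stood in 78.6% of the 28 mitosis promoters and 27.3% of the 11 replication promoters, against 19.4% of all 27025 promoters. The E2F letters stood in 17.9% of the mitosis promoters and 45.5% of the replication promoters, against 9.69% of all. The NF-Y letters stood in 64.3% and 54.5% of the same sets, against 17.7% of all. A match is only a run of letters, and these windows were not tested for binding.

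The 150 bases before the RefSeq start are shown for the 3 mitosis genes and the 2 replication genes with the smallest p at day 3 among those with a promoter in the table, since the results below turn on how these genes moved. All are written 5′ to 3′ on the gene's strand, and capitals mark the motifs. In Ube2c the last capitals, TTCAAA, are a CHR on the other strand, and the capitals before it are NF-Y boxes, as are all those of Cdca3 and Rrm2. In Ccnb1 the first run of capitals joins an E2F core, on the other strand, to an NF-Y box, and the second is an NF-Y box. In Mcm6 both long runs hold overlapping E2F cores, at 109 and at 46 bases before the start, with an NF-Y box between them. Outside the printed stretches, the searched windows also held a CHR in Cdca3 and an E2F core in Rrm2. They held a further NF-Y box in Ube2c and a further E2F core in Mcm6 there as well. The stretch of Cdca3 lies inside the gene as deposited, those of Ube2c, Ccnb1 and Rrm2 overlap the start of theirs, and that of Mcm6 does not overlap.
Cdca3, chr6:124830026-124830175, plus strand: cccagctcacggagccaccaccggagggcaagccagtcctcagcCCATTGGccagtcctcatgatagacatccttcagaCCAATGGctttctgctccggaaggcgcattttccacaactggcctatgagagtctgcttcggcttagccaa
Ube2c, chr2:164769779-164769928, plus strand: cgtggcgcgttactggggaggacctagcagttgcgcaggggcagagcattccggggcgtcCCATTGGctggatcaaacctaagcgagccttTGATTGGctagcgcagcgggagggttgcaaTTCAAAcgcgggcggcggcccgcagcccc
Ccnb1, chr13:100786487-100786636, minus strand: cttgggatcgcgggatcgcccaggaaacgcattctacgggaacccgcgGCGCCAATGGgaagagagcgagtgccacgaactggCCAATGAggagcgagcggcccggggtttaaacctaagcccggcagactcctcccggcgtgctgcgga
Rrm2, chr12:24708104-24708253, plus strand: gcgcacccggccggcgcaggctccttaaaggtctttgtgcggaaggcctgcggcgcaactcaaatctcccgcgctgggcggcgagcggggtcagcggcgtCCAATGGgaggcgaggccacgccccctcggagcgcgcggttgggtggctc
Mcm6, chr1:128359706-128359855, minus strand: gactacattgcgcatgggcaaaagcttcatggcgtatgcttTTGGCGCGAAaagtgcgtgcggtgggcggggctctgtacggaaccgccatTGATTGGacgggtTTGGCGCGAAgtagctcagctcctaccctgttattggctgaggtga

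The wild-type libraries held 15033983 to 16848254 counts and the Rag2 libraries 27227847 to 30315086. Levels are CPM, counts divided by the library's TMM-scaled total, unless a sentence says FPKM, which also divides by gene length. All 45 genes passed the filter on low counts in both tables. In the Rag2 strains Il2rg had 0 counts in all 3 Rag2 gc KO libraries and lay between 0.927 and 2.08 CPM in the Rag2 KO libraries. Rag2 itself lay between 0 and 0.036 CPM in Rag2 gc KO and was at 0 in Rag2 KO, but also reached no more than 0.246 CPM in the wild type. Rpe65, a pigment epithelium enzyme, lay between 53 and 280 CPM over the wild-type libraries. The wild-type libraries also held transcripts of the lens and of the eye surface. The 14 cornea and conjunctiva genes summed to 13794, 9527, 34565 and 4872 CPM at day 3, to 27848, 24840, 7369 and 5326 CPM at day 7 and to 20936, 5926, 12074 and 6376 CPM at day 14. In the controls they summed to 7934, 5161, 3643 and 2617 CPM. Day 3 replicate 3, day 7 replicates 1 and 2 and day 14 replicate 1 are the 4 libraries above 20000 CPM.

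In the controls the replication genes lay above most mitosis genes. Per length, the 12 replication genes had control means of 0.992 to 29.1 FPKM with a median of 2.24, and the 33 mitosis genes 0.0937 to 7.95 FPKM with a median of 0.557. Pcna, the sliding clamp of the DNA polymerases, which also serves DNA repair, was highest at 29.1 ± 2.68 FPKM (SD, n = 4). The next in order were the spindle checkpoint kinase Bub1b at 7.95 ± 0.832 FPKM and cyclin A2, Ccna2, at 6.96 ± 0.755 FPKM, whose ranges over the 4 controls overlap. Mcm7 followed at 5.83 FPKM and Mcm4 at 4.7 FPKM. At the low end stood Ndc80 at 0.0937, Hmmr at 0.137, Cenpf at 0.145 and Bub1 at 0.171 FPKM, and 24 of the 33 mitosis genes averaged under 1 FPKM.

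At day 3 after the laser the main edgeR fit called 19 of the 33 mitosis genes higher in the wild type, and 1 of the 12 replication genes. All 45 genes had a mean change above 0 at day 3 against control, with a median log2 fold change of 1.64, against 0.01 over all 18657 tested genes. The median was 1.85 for the 33 mitosis genes and 0.93 for the 12 replication genes. Of the 45, 20 were called higher by edgeR's quasi-likelihood test with Benjamini-Hochberg adjustment over all tested genes (adjusted p under 0.05), and 0 lower, where 6.97% of all tested genes were called higher and 7.77% lower. The replication gene among them was Rrm2. By DESeq2, 7 of the 12 replication genes and 26 of the 33 mitosis genes were called higher, where 11.6% of all tested genes were. Without the 4 libraries above 20000 CPM of cornea and conjunctiva genes it was 7 and 18 (14.2% of all). With the replicate number as a block it was 5 and 15 (8.53%), and without day 3 replicate 3 it was 0 and 0 (1.22%). In 23 of the 45, 4 of them replication genes, every day 3 library lay above every control, which held for 17.4% of all tested genes. The difference between the 2 sets was not tested.

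The number of calls and the size of the changes depended on single libraries. Day 3 replicate 3 was the highest of the 16 wild-type libraries for all 45 genes, and it held 29.7% to 69.9% of each mitosis gene's summed day 3 CPM, with a median of 59.9%, where 4 even libraries would give 25% each. Without it 0 of the 45 genes were called and the median log2 fold change was 0.82, where 1.22% of all tested genes were called higher. Leaving out control replicate 1, 2, 3 or 4 left 1, 0, 0 and 0 calls, where 2.03%, 1.01%, 0.849% and 1.37% of all tested genes were called higher, and the medians were 1.73, 1.67, 1.5 and 1.45. Leaving out day 3 replicate 1 left 8 calls with a median of 1.77, where 3.18% of all tested genes were called higher. Without the 4 libraries high in cornea and conjunctiva genes the median was 0.83, yet 25 of the 45 were called higher, 18 of them among the 20, where 14.2% of all tested genes were called higher. In the other day 3 libraries many of the 45 genes also stood above the controls. All 45 genes lay above all 4 controls in replicate 3, and 41, 39 and 24 of them did in replicates 1, 2 and 4. Of all tested genes, 40.2% did so in replicate 3, and 34.2%, 30.6% and 34% in replicates 1, 2 and 4.

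**Figure D1:**
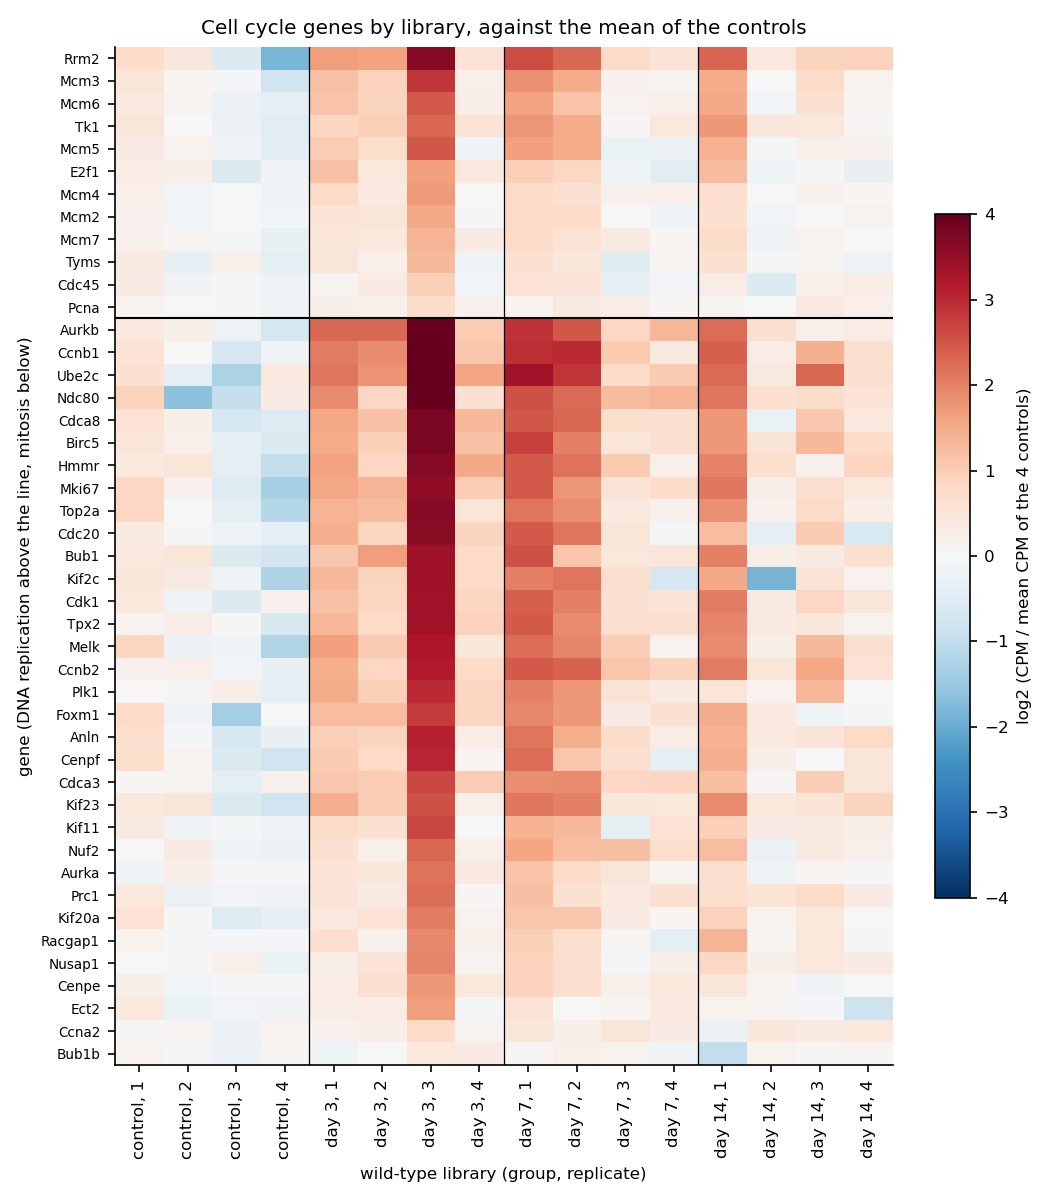
Rows are the 45 genes, with the 12 DNA replication genes above the line and the 33 mitosis genes below it, each set ordered by its log2 fold change at day 3. Columns are the 16 wild-type libraries, and colour is the log2 ratio of the library's CPM to the mean of the 4 controls. Day 3 replicate 3 is the darkest column, day 7 replicates 1 and 2 and day 14 replicate 1 come next, and the bottom rows, Ccna2 and Bub1b, stay pale.

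For a gene, rose and fell mean here and below called higher and lower by the main edgeR fit over all libraries. Foxm1 and Melk rose at day 3, and E2f1 did not pass. Foxm1 was no longer called when any 1 control or day 3 library was left out. Foxm1 (chromosome 6, 128362967 to 128376146, mm10), the transcription factor of many mitotic genes, had 5.33, 5.43, 15.8 and 4.16 CPM at day 3, against 3.96, 2.03, 0.889 and 2.27 CPM in control. Each day 3 library lay above every control, and the log2 fold change was 1.74 ± 0.55 (SE, edgeR, adjusted p = 0.0478). Melk, a kinase of mitotic cells, had a log2 fold change of 1.98 ± 0.63 (edgeR, adjusted p = 0.0482), although day 3 replicate 4, at 3.92 CPM, lay within the control range of 1.23 to 5.13 CPM. E2f1, a transcription factor that opens S phase, had 7.65, 4.53, 10.7 and 4.58 CPM at day 3, against 4.14, 4, 2.35 and 3.12 CPM in control. Its groups did not overlap, but its change of 1.01 ± 0.42 did not pass (edgeR, adjusted p = 0.1).

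None of the 7 helicase genes passed the edgeR test at day 3, while DESeq2 called Mcm3, Mcm4, Mcm6 and Mcm7 higher (11.6% of all tested genes). Mcm2 to Mcm7 encode the ring that unwinds DNA, and Cdc45 joins it when it fires. Their log2 fold changes lay between 0.38 for Cdc45 and 1.64 for Mcm3, with adjusted p of 0.0542 to 0.318. Mcm6 (chromosome 1, 128331590 to 128359664), whose promoter with its repeated E2F cores is shown above, had 25.4, 21.5, 63.4 and 13.7 CPM at day 3, against 15, 12.4, 9.78 and 8.71 CPM in control. Replicate 4 fell among the controls, and the change was 1.43 ± 0.48 (edgeR, adjusted p = 0.0542). Mcm5 had 21.4, 17.1, 59.3 and 9.34 CPM at day 3, against 13.2, 11.6, 9.59 and 7.99 CPM in control, so that its groups overlapped in the same library.

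Among the nucleotide enzymes and the clamp, Rrm2 rose. Rrm2 (chromosome 12, 24708241 to 24714146), the small subunit of ribonucleotide reductase that makes deoxynucleotides for S phase, had 9.61, 9.05, 36.9 and 4.46 CPM at day 3, against 5.01, 4.07, 2.03 and 0.845 CPM in control. The controls themselves ranged 5.93-fold, and day 3 replicate 4 lay within them. Its log2 fold change was 2.32 ± 0.72 (edgeR, adjusted p = 0.0457), and 1.37 ± 0.63 without day 3 replicate 3. Tk1, thymidine kinase, changed by 1.33 ± 0.48 with groups that did not overlap, at 9.37, 10.1, 25.4 and 7.55 CPM at day 3 against 7.36, 5.18, 4.38 and 3.9 CPM in control. Pcna changed by 0.36 ± 0.13, also without overlap, at 83.3, 81, 117 and 80.2 CPM at day 3 against 77.8, 69.4, 72.3 and 62.8 CPM in control. Neither passed (edgeR, adjusted p = 0.0683 for Tk1 and 0.0657 for Pcna), nor did Tyms, thymidylate synthase, at 0.56 ± 0.32 (edgeR, adjusted p = 0.208).

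The B cyclins and their kinase rose, and cyclin A2 did not pass. Ccnb1 (chromosome 13, 100778650 to 100786570), cyclin B1, had 4.16, 3.74, 21.1 and 2.14 CPM at day 3, against 1.48, 0.984, 0.635 and 0.91 CPM in control. No day 3 library overlapped the controls, and the log2 fold change was 2.94 ± 0.79 (edgeR, adjusted p = 0.0302). Ccnb2 had 5.14, 3.44, 17.5 and 3.27 CPM at day 3, against 2.17, 2.23, 1.78 and 1.56 CPM in control, a change of 1.92 ± 0.57 (edgeR, adjusted p = 0.0398). Cdk1, the kinase that both cyclins switch on, had 5.69, 4.53, 25.9 and 4.58 CPM at day 3, against 3.34, 2.16, 1.72 and 2.79 CPM in control, a change of 2.02 ± 0.63 (edgeR, adjusted p = 0.0461). Ccna2, which works with Cdk2 in S phase and with Cdk1 after it, had 32.1, 34.5, 48.4 and 30.9 CPM at day 3, against 27.8, 31, 24.5 and 31.6 CPM in control. Its groups overlapped and its change was 0.35 ± 0.16 (edgeR, adjusted p = 0.137). Of its exon bases, 12.5% are shared with Exosc9 on the other strand, and the strand setting of the counting is not given in the sources used here.

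Both classical markers of dividing cells rose. Mki67, whose protein coats mitotic chromosomes, had 18.4, 16.3, 74.2 and 12.4 CPM at day 3, against 11.1, 7.15, 4.45 and 2.53 CPM in control. Top2a, the topoisomerase that untangles sister DNA, had 17.7, 16.5, 86 and 9.69 CPM at day 3, against 12.3, 6.89, 5.34 and 3.12 CPM in control. Mki67 did not overlap between the groups, while Top2a in day 3 replicate 4 lay below control replicate 1. The log2 fold changes were 2.26 ± 0.67 for Mki67 (edgeR, adjusted p = 0.0392) and 2.23 ± 0.7 for Top2a (edgeR, adjusted p = 0.0458).

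All 3 measured parts of the chromosomal passenger complex rose. This complex corrects faulty spindle attachments and steers cytokinesis, and its kinase, Aurkb (chromosome 11, 69045647 to 69051664), had the smallest p of the 45 genes. Aurkb had 4.59, 4.65, 18.1 and 1.9 CPM at day 3, against 1.24, 1.12, 0.826 and 0.585 CPM in control. The groups were apart, and the log2 fold change was 2.95 ± 0.71 (edgeR, adjusted p = 0.022), or 1.97 ± 0.59 without day 3 replicate 3. Birc5, survivin, changed by 2.36 ± 0.67 and Cdca8, borealin, by 2.4 ± 0.67 (edgeR, adjusted p = 0.0341 and 0.0328), each with every day 3 library above every control.

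At the kinetochore, where chromosomes meet the spindle, 3 of 6 genes rose. Ndc80, the microtubule-binding subunit, had 2.27, 1.09, 10 and 0.951 CPM at day 3, against 1.18, 0.197, 0.318 and 0.78 CPM in control, a log2 fold change of 2.51 ± 0.76 (edgeR, adjusted p = 0.0428). Control replicate 1 lay above 2 of the 4 day 3 libraries. Bub1, a spindle checkpoint kinase, changed by 2.13 ± 0.67 and Cenpe, a kinetochore motor, by 0.9 ± 0.28 (edgeR, adjusted p = 0.0469 and 0.0472). Bub1 was no longer called when any 1 control or day 3 library was left out. Nuf2, the partner of Ndc80, and Cenpf changed by 1.12 ± 0.45 and 1.7 ± 0.65 and did not pass (edgeR, adjusted p = 0.0903 and 0.0807). Bub1b had 30.3, 34.3, 45.7 and 43.5 CPM at day 3, against 38.1, 33.5, 29.2 and 36.6 CPM in control. The groups overlapped, although replicates 3 and 4 lay above every control, and the change was 0.16 ± 0.21, the smallest of the 45 (edgeR, adjusted p = 0.576).

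Of the 7 spindle genes, Plk1, Tpx2 and Hmmr rose. Plk1, a kinase that matures centrosomes, had 6.8, 4.71, 19.1 and 4.34 CPM at day 3, against 2.41, 2.49, 2.86 and 1.88 CPM in control. Every day 3 library was above every control, and the log2 fold change was 1.85 ± 0.51 (edgeR, adjusted p = 0.0317). Tpx2, which activates Aurora A on the spindle, changed by 2.02 ± 0.62 and Hmmr by 2.3 ± 0.67 (edgeR, adjusted p = 0.0441 and 0.0365). Aurka, Aurora A itself, had 4.53, 4.29, 13.9 and 4.04 CPM at day 3, against 2.78, 3.74, 2.99 and 2.92 CPM in control. It did not overlap either, but its change of 1.1 ± 0.38 did not pass (edgeR, adjusted p = 0.0581). The motors Kif11 and Kif2c and the bundling protein Nusap1 changed by 1.39 ± 0.51, 2.03 ± 0.75 and 0.91 ± 0.36, with adjusted p of 0.0713, 0.0737 and 0.0853.

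The 6 genes of cytokinesis, the cutting of the cell in 2, did not pass the edgeR test. Anln, which scaffolds the contractile ring, changed by 1.74 ± 0.57 and the central spindle motor Kif23 by 1.55 ± 0.55 (edgeR, adjusted p = 0.052 and 0.0656). Prc1, Kif20a, Racgap1 and Ect2 changed by 1.07, 1, 0.94 and 0.71, with adjusted p of 0.0701 to 0.14. Racgap1, which with 2.11 FPKM had the highest control level per length of the 6, had 23.9, 17, 57.5 and 17.3 CPM at day 3, against 16.7, 14.4, 14.7 and 14.4 CPM in control, and every day 3 library lay above every control. Kif20a shares 29.3% of its exon bases with Cdc23 on the other strand, so its count is uncertain.

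All 3 genes of mitotic protein destruction rose. Ube2c (chromosome 2, 164769898 to 164778822) is the ubiquitin-conjugating enzyme of the anaphase-promoting complex, Cdc20 is an activator of that complex, and Cdca3 acts in the breakdown of Wee1. Ube2c had 6.06, 4.77, 26.9 and 4.16 CPM at day 3, against 2.1, 1.05, 0.572 and 1.82 CPM in control, a log2 fold change of 2.91 ± 0.78 (edgeR, adjusted p = 0.0302). Cdca3 (chromosome 6, 124829547 to 124833701) had 7.35, 7, 22.2 and 7.02 CPM at day 3, against 3.59, 3.74, 2.67 and 3.96 CPM in control. Its replicates 1, 2 and 4 were close to one another and above all controls, and its change was 1.64 ± 0.41 (edgeR, adjusted p = 0.0249), or 1.03 ± 0.32 without replicate 3. Cdc20 changed by 2.2 ± 0.7 (edgeR, adjusted p = 0.0486). Ube2c shares 22.8% of its exon bases with Tnnc2 on the other strand.

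**Figure D2:**
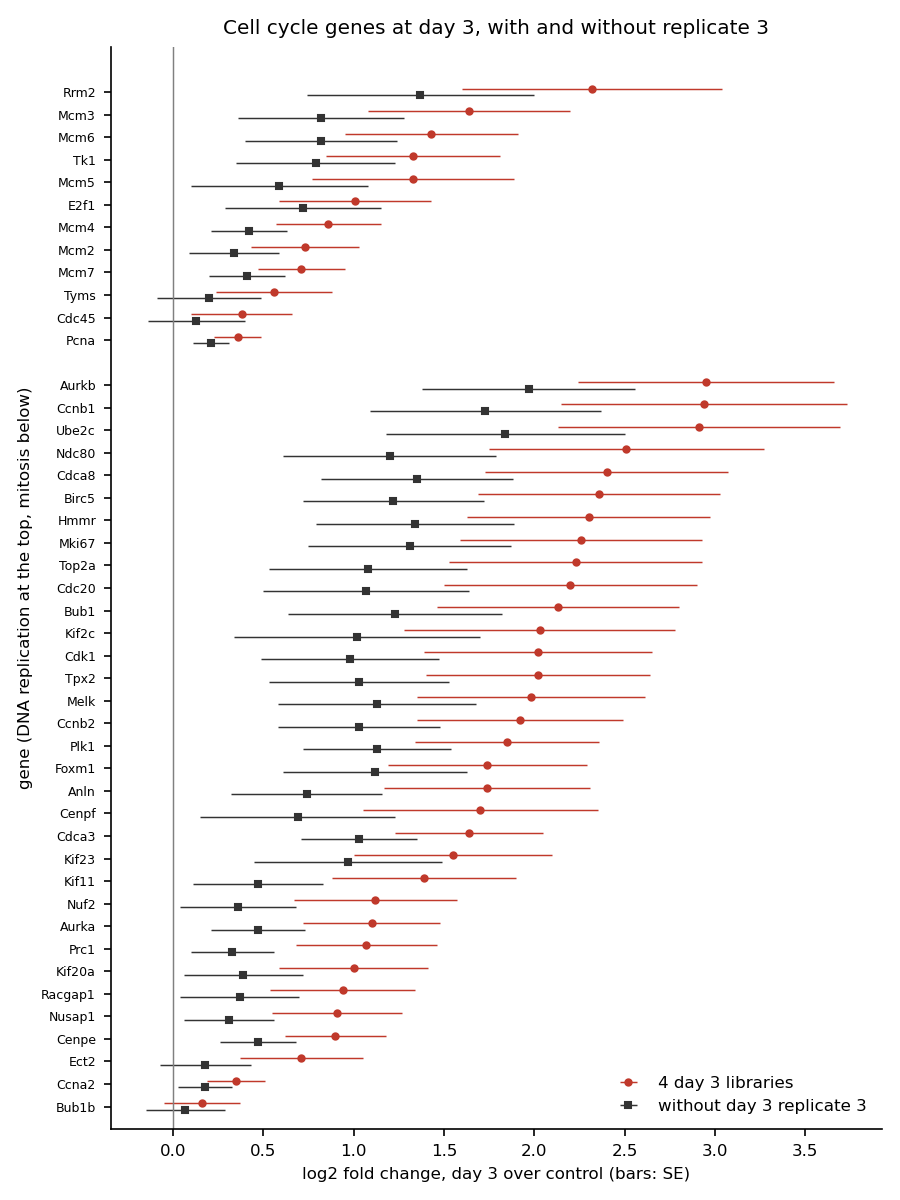
Points are log2 fold changes at day 3 over control from edgeR for the 45 genes, with bars of 1 SE, over all 4 day 3 libraries (circles) and without replicate 3 (squares). Every square lies left of its circle and above 0, and for Aurkb the values are 2.95 with replicate 3 and 1.97 without it.

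At day 7 most of the 45 genes were highest in 2 of the 4 libraries. Of the 45 genes 2 were called higher than control, Ccnb2 and Cdca3, and 0 lower, where 3.62% of all tested genes were called higher and 6.9% lower. The median log2 fold change was 1.4 for the mitosis genes and 0.47 for the replication genes. Over all 45 it was 1.21, or 0.78 without day 7 replicate 1 and 0.33 without the 4 libraries high in cornea and conjunctiva genes, where the mitosis genes had 0.5 and the replication genes 0.18. Leaving out any 1 control, or day 7 replicate 1 or 2, ended both calls. Ccnb2 had 10.7, 9.86, 4.2 and 3.62 CPM at day 7, against 2.17, 2.23, 1.78 and 1.56 CPM in control, a change of 1.87 ± 0.57 (edgeR, adjusted p = 0.0485). Cdca3 had 12.8, 12.9, 6.22 and 6.38 CPM at day 7, against 3.59, 3.74, 2.67 and 3.96 CPM in control, a change of 1.45 ± 0.41 (edgeR, adjusted p = 0.0394). For both genes the day 7 libraries split into a high and a low pair, and the low pair still lay above every control.

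In 39 of the 45 genes replicates 1 and 2 both lay above replicates 3 and 4, and the exceptions were Bub1b, Ccna2, Ect2, Nuf2, Pcna and Prc1. Mki67 had 34.7, 21.3, 9.24 and 10.4 CPM at day 7, against 11.1, 7.15, 4.45 and 2.53 CPM in control, a change of 1.58 ± 0.66 (edgeR, adjusted p = 0.116). Ube2c had 14.1, 9.99, 2.37 and 2.89 CPM at day 7, against 2.1, 1.05, 0.572 and 1.82 CPM in control, a change of 2.39 ± 0.77 (edgeR, adjusted p = 0.0577). Mcm5 had 33.1, 29.8, 8.76 and 8.96 CPM at day 7, against 13.2, 11.6, 9.59 and 7.99 CPM in control, so its low pair stood inside the control range. In day 7 replicates 1 and 2, 43 and 44 of the 45 genes lay above all 4 controls, and in replicates 3 and 4 it was 22 and 17, where 38.5%, 37.8%, 29.5% and 30% of all tested genes did. Replicates 1 and 2 are also the day 7 libraries above 20000 CPM of cornea and conjunctiva genes. In 12 mitosis genes and 0 replication genes every day 7 library exceeded every control, which held for 11.3% of all tested genes.

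At day 14, 0 of the 45 genes were called by edgeR, where 0.0322% of all tested genes were called higher and 0.241% lower. DESeq2 also called 0, where it called 4.21% of all tested genes higher. The median log2 fold change was 0.75 for the mitosis genes and 0.29 for the replication genes, or 0.43 and 0.11 without day 14 replicate 1. Mki67 had 27.2, 7.56, 10.1 and 8.37 CPM at day 14, against 11.1, 7.15, 4.45 and 2.53 CPM in control. Ccnb2 had 8.16, 2.7, 5.68 and 2.92 CPM at day 14, against 2.17, 2.23, 1.78 and 1.56 CPM in control, without overlap and with a change of 1.32 ± 0.57 (edgeR, adjusted p = 0.173). Replicate 1 was the highest day 14 library for both genes, and there 40 of the 45 genes lay above all 4 controls. In replicates 2, 3 and 4 it was 8, 23 and 14, where 41.6%, 25.5%, 34.8% and 24.5% of all tested genes did in replicates 1 to 4.

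Between the times after the laser 0 of the 45 genes were called by edgeR. Against day 3, the median log2 fold change was -0.44 at day 7 and -0.89 at day 14. DESeq2 called 0 in both, where it called 0.125% and 0.34% of all tested genes lower. By edgeR, 0% of all tested genes were called either way at day 7 against day 3, and 0.00536% lower and 0% higher at day 14 against day 3. The fold changes against day 3 share the day 3 libraries with those against control. The order of day 3 and day 7 changed with the libraries used. Without day 3 replicate 3 the median of day 7 against day 3 was 0.31, with 43 of the 45 genes above 0. That of day 14 against day 3 was then -0.11. Leaving out all 4 libraries above 20000 CPM of cornea and conjunctiva genes, day 3 replicate 3 among them, gave another order. There the median of day 7 against day 3 was -0.43, with 5 of the 45 genes above 0.

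**Figure D3:**
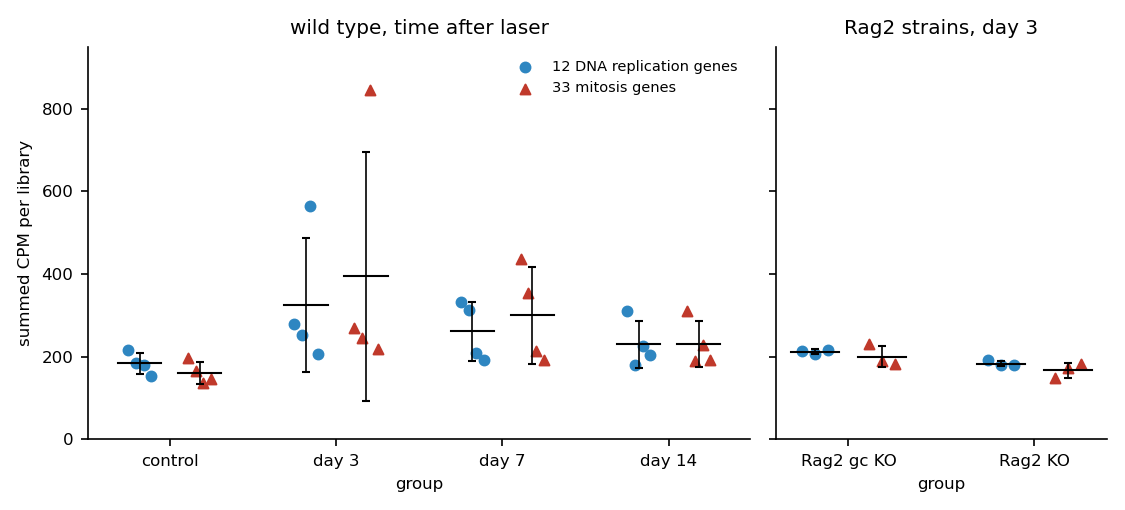
Points are the summed CPM of the 12 DNA replication genes (circles) and the 33 mitosis genes (triangles) in each library, for the wild-type time course at left and the Rag2 strains at right, with the mean as a line and the SD as bars. The tables were normalised separately. Day 3 replicate 3 stands alone at 846.2 CPM for mitosis genes, and the controls lie between 136.3 and 196.9 CPM.

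Summed over the 33 mitosis genes, the controls had 196.9, 164.2, 136.3 and 146 CPM and day 3 had 269.9, 245, 846.2 and 217.6 CPM. Day 7 had 437.2, 354.9, 213.8 and 192.6 CPM, and day 14 had 311.2, 189.5, 227.6 and 192.6 CPM. Each day 3 library lay above the highest control, and at day 7 and at day 14 the lowest libraries did not. Over the 12 replication genes the sums were 215.6, 184.2, 179.5 and 153.3 CPM in control and 278.5, 251.8, 563.6 and 205 CPM at day 3. They were 333.2, 311.8, 208 and 192.7 CPM at day 7 and 310.3, 179.2, 226.5 and 203 CPM at day 14, so each time after the laser overlapped the controls. In such bulk libraries, more dividing cells and more of a transcript in each dividing cell cannot be told apart.

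The libraries with the highest mitosis sums were those with the most cornea and conjunctiva transcripts. The 4 libraries above 20000 CPM of that list, with Krt5 as its most abundant gene, had the 4 highest sums of mitosis genes of the 16, 311.2 to 846.2 CPM. All 14 genes of the list were detected in the wild-type table, 3 of its 12 tested genes were called higher at day 3, and 0 at day 7 and day 14. Over all tested genes 6.97%, 3.62% and 0.0322% were called higher at these times. Day 3 replicate 4 had 4872 CPM of the list, inside the control range of 2617 to 7934 CPM, and its mitosis sum of 217.6 CPM exceeded every control. With lens and cornea scores as covariates, 0 of the 45 genes were called at day 3, day 7 or day 14, and the median log2 fold changes against control were 0.34, 0.02 and -0.24. In that fit 1.68%, 3.18% and 0.188% of all tested genes were called higher. The lens list summed to 3906 to 8354 CPM at day 3 and 46.6 to 1018 CPM in control, without overlap. At day 3 the fit therefore could not cleanly separate the lens score from the laser. The part of the eye surface transcripts in the results was not tested beyond these values.

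Other marker lists also differed between day 3 and control, where 6.97% of all tested genes were called higher and 7.77% lower. Of the 12 monocyte and macrophage genes 11 were called higher at day 3, and the list summed to 157.7, 88, 249.4 and 236.9 CPM at day 3, against 38.11, 28.73, 47.78 and 51.67 CPM in control. The 10 microglia genes summed to 181.5, 191.4, 259.1 and 359.9 CPM at day 3, against 80.54, 85.67, 91.11 and 74.55 CPM in control, and 4 were called higher. The 8 fibroblast genes summed to 863, 501.6, 920.6 and 1108 CPM at day 3, against 311.5, 274.1, 387.9 and 254.6 CPM in control, and 4 were called higher. The 10 endothelial genes summed to 248.2, 286.8, 182.8 and 391.9 CPM at day 3, against 170.5, 164, 184.9 and 230.7 CPM in control, with 1 called. Day 3 replicate 3, the highest for every cell cycle gene, was the lowest day 3 library of the endothelial list. It was the highest of the 8-gene neutrophil list, at 116.9 CPM, where the other day 3 libraries had 4.406 to 10.1 CPM and the controls 1.3 to 2.414 CPM. The 12 lens genes summed to 3906 to 8354 CPM at day 3 and 46.6 to 1018 CPM in control, with replicate 3 the lowest of day 3. The Muller glia and pigment epithelium lists went the other way. The 8 Muller glia genes summed to 3236 to 3663 CPM at day 3 and 4412 to 4831 CPM in control, with 2 called lower. The 8 pigment epithelium genes summed to 1156 to 1836 CPM at day 3 and 2018 to 2877 CPM in control, with 4 called lower. Which cells held the cell cycle transcripts was not tested.

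**Figure D4:**
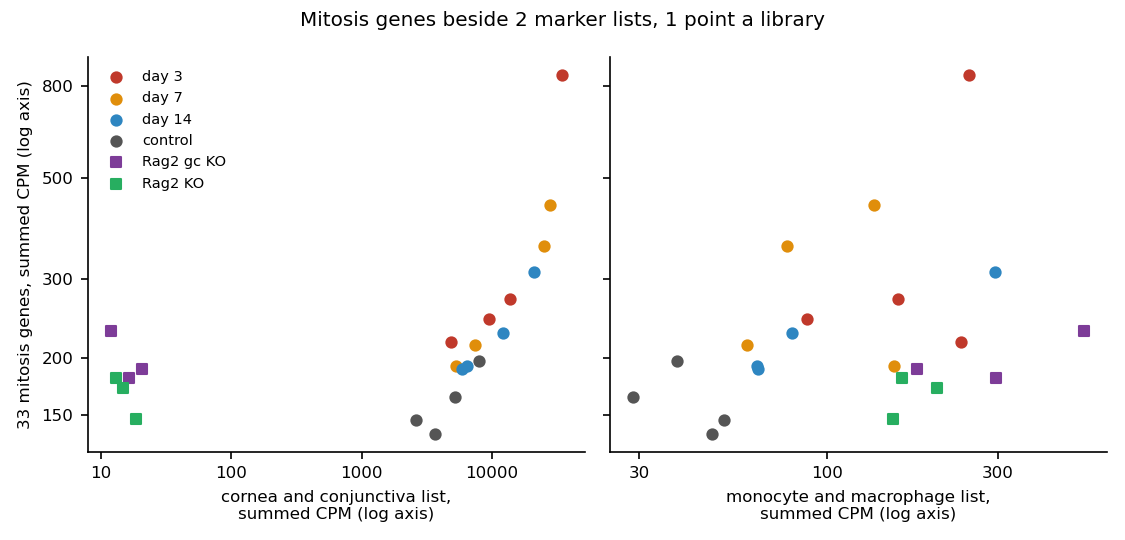
Each point is a library, with the summed CPM of the 33 mitosis genes on the log y axis and that of the cornea and conjunctiva list (left) or the monocyte and macrophage list (right) on the log x axis. Circles are wild type and squares are the Rag2 strains, which were normalised in another table. The 4 wild-type libraries above 20000 CPM at left are the 4 highest, and the Rag2 libraries lie at 11.89 to 20.86 CPM of that list.

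Bub1b and Ccna2, abundant in the controls, had the smallest changes of the 45 genes at day 3. Their log2 fold changes at day 3, day 7 and day 14 against control were 0.16, 0.06 and -0.11 for Bub1b and 0.35, 0.38 and 0.27 for Ccna2. Both were lowest within day 14 in replicate 1, the library with 16685 CPM of lens genes, where the controls had 46.6 to 1018 CPM. There Bub1b had 17.3 CPM, against 37.9, 35.6 and 36.7 CPM in the other day 14 libraries, and Ccna2 had 24.6 CPM, against 39.1, 36.7 and 38.5 CPM. In the same library 40 of the 45 genes lay above all controls. In the Rag2 table too these were 2 of the 3 genes with a change under 0, at -0.08 ± 0.12 for Ccna2 and -0.22 ± 0.16 for Bub1b.

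In the Rag2 strains 42 of the 45 cell cycle genes had a mean change above 0 in Rag2 gc KO against Rag2 KO, and 0 were called by edgeR, where 0.211% of all tested genes were called higher and 0.254% lower. DESeq2 called 4 higher, Mcm6, Rrm2, Ccnb2 and Cdk1, where it called 2.37% of all tested genes higher. The median log2 fold change was 0.34, against 0 over all 18923 tested genes. In 17 genes every Rag2 gc KO library exceeded every Rag2 KO library, which held for 11.5% of all tested genes, and in 0 genes every library was lower, which held for 10.6%. The 17 were the 8 replication genes Mcm2, Mcm3, Mcm4, Mcm5, Cdc45, Pcna, Rrm2 and Tyms and the 9 mitosis genes Ccnb1, Ccnb2, Cdk1, Kif2c, Tpx2, Ndc80, Birc5, Racgap1 and Ube2c.

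The values behind these changes were small. Rrm2 had 5.55, 4.43 and 4.43 CPM in Rag2 gc KO, against 1.95, 2.51 and 2.81 CPM in Rag2 KO, a log2 fold change of 0.99 ± 0.23 (edgeR, adjusted p = 0.115). Ccnb2 had 5.7, 5.08 and 5.31 CPM in Rag2 gc KO, against 2.84, 3.51 and 3.11 CPM in Rag2 KO, a change of 0.77 ± 0.19 (edgeR, adjusted p = 0.13). Cdk1 had 8.72, 5.66 and 7.82 CPM in Rag2 gc KO, against 4.42, 4.49 and 4.27 CPM in Rag2 KO, a change of 0.75 ± 0.2 (edgeR, adjusted p = 0.149). These 3 genes were apart in all 6 libraries without passing the test. Mcm6 had 10.7, 4.07 and 10.1 CPM in Rag2 gc KO, against 3.47, 3.88 and 4.27 CPM in Rag2 KO, so that 1 Rag2 gc KO library fell among the others. Its change was 1.09 ± 0.34 (edgeR, adjusted p = 0.224), and it was called without Rag2 gc KO replicate 2.

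The markers of division overlapped between the strains. Mki67 had 11.3, 6.45 and 7.12 CPM in Rag2 gc KO, against 2.74, 5.82 and 7.48 CPM in Rag2 KO, a change of 0.63 ± 0.38 (edgeR, adjusted p = 0.49). Aurkb, with 3.43, 1.87 and 2.16 CPM in Rag2 gc KO and 1.25, 1.14 and 1.92 CPM in Rag2 KO, overlapped in 1 library (0.79 ± 0.33, edgeR, adjusted p = 0.323). Plk1, Prc1, Aurka, E2f1, Tk1 and Mcm7 had log2 fold changes of at most 0.04 in size. The mitosis genes summed to 229.6, 189.6 and 181 CPM in Rag2 gc KO and to 147.1, 172.2 and 181.4 CPM in Rag2 KO. The replication genes summed to 213.2, 206.8 and 216.5 CPM in Rag2 gc KO and to 190.8, 179.6 and 178.5 CPM in Rag2 KO and did not overlap.

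Among the myeloid lists, microglia stood higher in every Rag2 gc KO library, while the monocyte and macrophage list and the neutrophil list overlapped between the strains. The 12 monocyte and macrophage genes summed to 523.5, 179 and 297 CPM in Rag2 gc KO, against 152.8, 202.7 and 162.5 CPM in Rag2 KO, and 0 were called. The 10 microglia genes summed to 193.6, 154.5 and 173.4 CPM in Rag2 gc KO, against 99.7, 115.6 and 107.4 CPM in Rag2 KO, and 2 were called higher (0.211% of all tested genes). The 8 neutrophil genes summed to 13.94, 9.044 and 12.53 CPM in Rag2 gc KO, against 3.927, 9.942 and 7.944 CPM in Rag2 KO. Rag2 gc KO replicate 1, the highest for both mitosis and macrophage genes, also had 1817 CPM of fibroblast genes, where the other 5 libraries had 312.4 to 560.3 CPM. The cornea and conjunctiva list was near 0 in both strains, at 11.89 to 20.86 CPM in Rag2 gc KO and 13.01 to 18.71 CPM in Rag2 KO, with Sprr2a3 at 0 in all 6 libraries. The part of the myeloid and fibroblast transcripts in the difference was not tested.

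**Figure D5:**
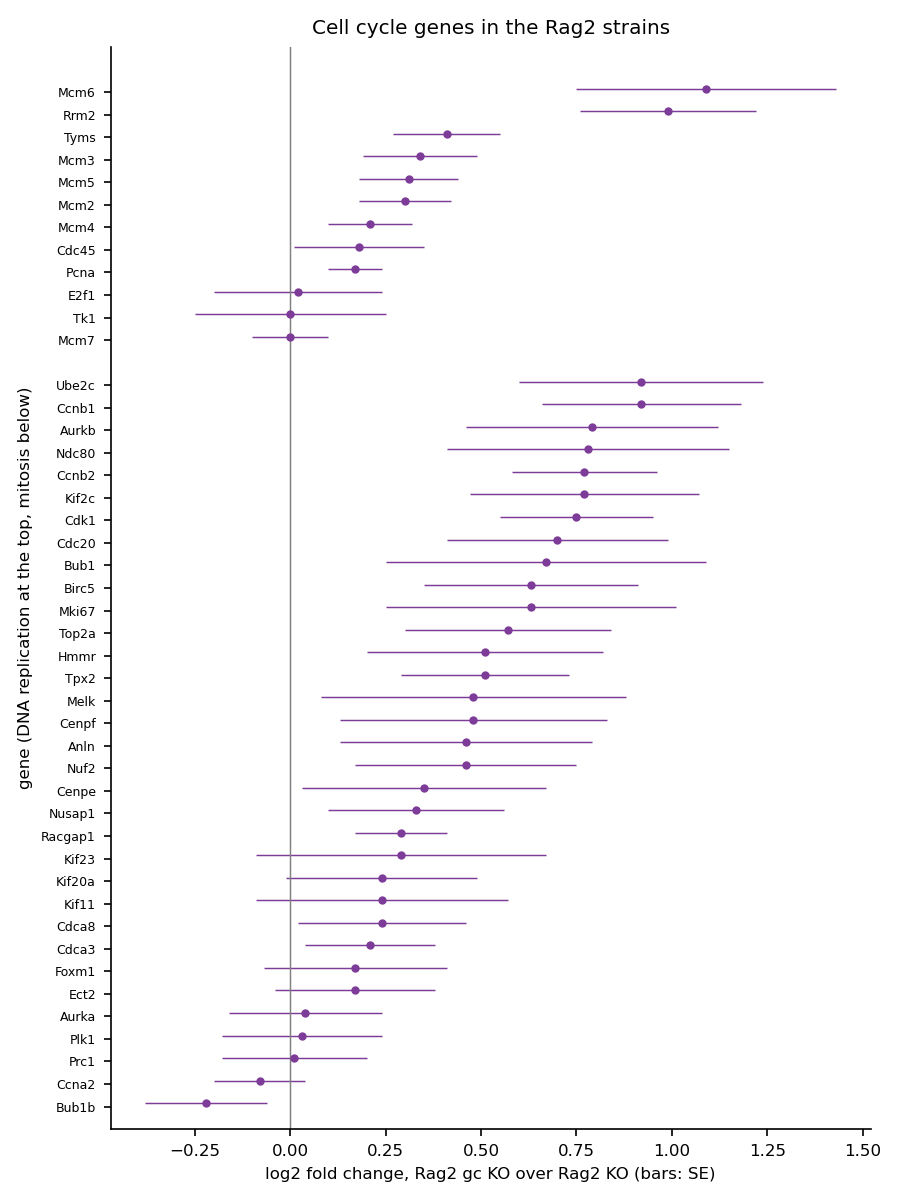
Points are log2 fold changes of Rag2 gc KO over Rag2 KO from edgeR for the 45 genes, with bars of 1 SE, over 3 against 3 libraries. Most points lie right of 0, led by Mcm6 at 1.09 and Rrm2 at 0.99, and Bub1b lies farthest left at -0.22.

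Further genes of the same pathways were read from lists that hold none of the 45. Their calls were read from the main fit alone, with no library left out. Of 32 other replication factors, 9 rose and 0 fell at day 3 against control, with a median log2 fold change of 0.48. Over all tested genes 6.97% were called higher and 7.77% lower, with a median of 0.01. Mcm10, which helps to start the replication fork, had 8.45, 9.66, 13.1 and 8.62 CPM at day 3, against 5.32, 5.77, 4.26 and 6.63 CPM in control, a change of 0.86 ± 0.22 (edgeR, adjusted p = 0.0271). Pola2, a subunit of DNA polymerase alpha, had 12.7, 16.8, 21 and 13.9 CPM at day 3, against 9.4, 10.2, 9.15 and 10.1 CPM in control, a change of 0.73 ± 0.17 (edgeR, adjusted p = 0.0202). In both genes the groups did not overlap, and replicate 3 was again the highest day 3 library. Cdt1 and Gins2, which load and complete the helicase, changed by 1.19 ± 0.34 and 1.17 ± 0.35, and Rfc3, of the clamp loader, by 0.61 ± 0.17 (edgeR, adjusted p = 0.0307 to 0.0405).

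Of 45 other mitosis factors 12 rose and 1 fell at day 3, with a median of 1.25, where 6.97% of all tested genes were called higher and 7.77% lower. Kif14, a motor of cytokinesis, had 5.2, 6.34, 8.28 and 6.78 CPM at day 3, against 2.29, 3.35, 2.29 and 3.44 CPM in control, a change of 1.22 ± 0.22 (edgeR, adjusted p = 0.00873). Pbk, a mitotic kinase, changed by 3.41 ± 0.78, Ckap2 by 1.76 ± 0.41 and Cks1b, a subunit of the Cdk complexes, by 1.98 ± 0.52 (edgeR, adjusted p = 0.019 to 0.0284). Cit, citron kinase of the midbody, fell by 0.41 on the log2 scale at day 3 (SE 0.11, edgeR, adjusted p = 0.0294), with 18.4, 17.3, 21.6 and 19 CPM at day 3, against 23.5, 26.1, 26 and 25.9 CPM in control. At day 7, 4 of the replication factors rose (Mcm10, Rfc3, Tipin and Pola2). Of the mitosis factors, 3 rose (Ckap2, Pttg1 and Pbk) and Cit fell at day 7. Over all tested genes 3.62% were called higher and 6.9% lower at day 7. At day 14, 0 of either list were called, where 0.0322% of all tested genes were called higher and 0.241% lower.

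The genes of the G1 gate moved in both directions. Of 12 G1 cyclins and kinases with their activators, 4 rose at day 3: Cdk4, Myc, Cdk6 and Cdk2. Over all tested genes 6.97% were called higher at day 3 and 7.77% lower. Cdk4, the partner of D cyclins, had 74.9, 71.7, 120 and 76.3 CPM at day 3, against 48.9, 45.6, 48.7 and 51.2 CPM in control, a change of 0.82 ± 0.22 (edgeR, adjusted p = 0.0306). Myc had 9.92, 6.64, 29.3 and 6.06 CPM at day 3, against 2.91, 3.02, 2.41 and 1.3 CPM in control, a change of 2.42 ± 0.65 (edgeR, adjusted p = 0.0307). Of 14 inhibitors, 13 were tested, and at day 3 Trp53 and its target Cdkn1a rose while Rb1 and its relative Rbl2 fell. Rbl2 had 41.1, 40.5, 33.4 and 42.2 CPM at day 3, against 56.2, 60.5, 65.3 and 60.6 CPM in control, and fell by 0.63 on the log2 scale (SE 0.11, edgeR, adjusted p = 0.00905). Rb1, which holds E2F factors in check, had 31.8, 36.9, 26.8 and 33.6 CPM at day 3, against 55.3, 54.4, 54.4 and 51.1 CPM in control, and fell by 0.74 (SE 0.16, edgeR, adjusted p = 0.0169). Rbl2 was also called lower at day 7, as was the activator E2f3. In Rag2 gc KO against Rag2 KO, 1 gene of these 4 lists was called, Hjurp, the chaperone of the centromere histone, at 53.4, 60.4 and 54.5 CPM in Rag2 gc KO against 76.7, 81.8 and 74.8 CPM in Rag2 KO (-0.47 ± 0.07, edgeR, adjusted p = 0.0339). Over all tested genes 0.211% were called higher and 0.254% lower between the strains.

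The authors' deposited table, which compares the wild-type groups by a tool not given in the sources used here, lists more of the 45 genes as changed. At an adjusted p under 0.05, 32 of them are higher at day 3, 31 at day 7 and 2 at day 14, and 0 lower, in the authors' deposited table. For 5 genes at day 3, Birc5, Cdc20, Cdca8, Cdk1 and Ube2c, the authors' deposited table gives no p and an adjusted p of 1, and edgeR called all of them. Of the genes with a p in the authors' deposited table, 14.0% were higher at day 3, 9.18% at day 7 and 1.71% at day 14.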

How the data were processed

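The authors deposited 1 table of raw counts per gene for the wild-type libraries and 1 for the Rag2 libraries, counted with featureCounts 1.5.0-p3 on mm10, per the submitters' processing notes. What aligner, annotation release and strand setting they used is not given in the sources used here. The authors also deposited FPKM values, counts scaled by gene length and depth, which were used to order levels between genes. The wild-type table holds the authors' log2 fold changes, p-values and adjusted p-values. From these, numbers of genes were read, and the genes without a p at day 3 were named.

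Counts were fitted in R 4.3.3 with edgeR 4.0.16 and limma 3.58.1. Genes passed filterByExpr at its defaults (minimum count 10, minimum total 15), libraries were scaled by TMM, and robust quasi-likelihood fits on group means covered all 16 wild-type or all 6 Rag2 libraries. P-values were adjusted by Benjamini-Hochberg over all tested genes, and a gene was called at an adjusted p under 0.05. CPM were computed from the deposited counts with TMM-scaled totals. The 2 tables were fitted separately. Alternatives were DESeq2 1.42.0, library totals, no filter, fits of only the groups compared, a replicate block, each library left out, lens and cornea scores as covariates, and sets of libraries left out. The fits were tested on simulated counts.

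The 45 genes, the pathway and marker lists and the tests were chosen with earlier results of these data known. All 45 could be named. In the pathway lists, the text picks from up to 5 called genes per comparison with the smallest p, or the 2 smallest with none called. The roles by which the text groups the 45 genes were assigned from textbook knowledge after the values were seen. With 15033983 to 30315086 counts a library, low genes such as Ndc80 rest on few reads. Some marker genes of the retina are not reported here.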

Additional observations from a re-analysis of the deposited data

Results flagged for a closer look

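The libraries of a wild-type group were compared with one another for each gene, and a library was picked out where its gap to the nearest other, divided by the group's range, exceeded Dixon's 95% critical value for 4 samples, 0.829. Of 180 groups tested, 48 were picked out, where chance picks out about 1 in 20. Of the 48, 33 were day 3 replicate 3 as the highest library, and 10 were day 14 replicate 1 as the highest.

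In day 3 replicate 3 the replication genes Mcm7, Pcna, Rrm2 and Tk1 had 66.3, 117, 36.9 and 25.4 CPM, where the next day 3 library had 36.6, 83.3, 9.61 and 10.1 CPM. The cyclin genes Ccnb1 and Ccnb2 had 21.1 and 17.5 CPM there and Cdk1 had 25.9 CPM. The division markers Mki67 and Top2a had 74.2 and 86 CPM. In the chromosomal passenger complex Aurkb, Birc5 and Cdca8 had 18.1, 22.5 and 24 CPM. At the kinetochore Bub1, Cenpe, Cenpf, Ndc80 and Nuf2 had 7.95, 16, 18.5, 10 and 9.47 CPM. Of the spindle genes Aurka, Plk1, Kif11, Kif2c, Tpx2, Hmmr and Nusap1 had 13.9, 19.1, 20.1, 11.1, 25.5, 9.27 and 16 CPM. Of the cytokinesis genes Kif20a, Prc1, Anln, Ect2 and Racgap1 had 12.3, 24.5, 32.1, 12.1 and 57.5 CPM. Cdc20, Cdca3, Ube2c and Foxm1 had 37.3, 22.2, 26.9 and 15.8 CPM in the same library.

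In day 14 replicate 1 the 10 genes were E2f1 at 8.16, Mcm5 at 27.5, Rrm2 at 14.9, Tk1 at 17.4 and Mki67 at 27.2 CPM, and Aurkb at 4.4, Bub1 at 3.03, Kif11 at 6.14, Tpx2 at 9.67 and Ndc80 at 2.74 CPM. The nearest other day 14 library had 3.26 CPM for E2f1 and 12.2 CPM for Mcm5. The same library was the lowest of its group for Bub1b, at 17.3 CPM, and Ccna2, at 24.6 CPM. Day 14 replicate 2 was the lowest for Cdc45, at 3.05 CPM. Control replicate 1 was the highest control for Cenpe, at 5.69 CPM, and Racgap1, at 16.7 CPM.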

How the results depend on the processing

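No called change turned round under the alternatives run, but medians over the 45 genes did. At day 7 against day 3 the median log2 fold change was -0.44, and 0.31 without day 3 replicate 3 and 0.18 without the 3 libraries named next. At day 14 against control it was 0.59, and -0.24 once scores for lens and cornea entered as covariates. Fold changes that were not called changed sign in at least 1 alternative for 42 of the 45 genes at day 7 against day 3, 31 at day 14 and 21 at day 7 against control, 13 at day 14 against day 3, 8 in the Rag2 strains and 6 at day 3 against control. The number of the 45 genes called also moved, and shares in brackets are those of all tested genes called higher. At day 3 against control, 20 were called (6.97% of all), 33 by DESeq2 (11.6%), 3 without the filter on low counts (2.09%) and 0 with the covariates (1.68%). It was 3 (10.2%) without a fixed set of 3 libraries, day 14 replicate 1, day 7 replicate 2 and day 3 replicate 3. Day 7 replicate 1 was kept there, though it had 27848 CPM of the cornea list, against 24840 CPM in day 7 replicate 2. Leaving out 1 library gave 0 to 20 at day 3 against control, with 20 called without day 3 replicate 2 (6.67%). At day 7 against control, 2 were called (3.62% of all), 14 by DESeq2 (7.32%), 0 without the filter (0.731%) and 0 with the covariates (3.18%). It was 19 with only the groups compared in the fit (11.4%) and 15 without those 3 libraries (8.18%). Without all 4 libraries above 20000 CPM of the cornea list it was 3 (2.72%). With 1 library left out it was 0 to 4, the 4 without day 7 replicate 4 (6.33%). At day 14 against control, 0 were called (0.0322%), and 1, Ccna2, without those 3 libraries (0.91%). The same 1 was called without the 4 libraries above 20000 CPM of the cornea list (3.39%), a set chosen after seeing the data. At day 14 against day 3, 0 were called, and the brackets here give the share of all tested genes called lower. With the covariates 3 were lower (0.568%), and without the 4 libraries 1 was lower (4.99%). With 1 library left out it was 0 to 1, the 1 lower without day 14 replicate 1 (3.72%). At day 7 against day 3, 0 were called in each alternative. In Rag2 gc KO against Rag2 KO, 0 were called (0.211% of all higher), 4 by DESeq2 (2.37%) and 1 without the filter (0.881%). With 1 library left out it was 0 to 1, the 1 without Rag2 gc KO replicate 2 (0.216%). Without the filter 35043 genes were tested in the wild type. The cause of these changes was not tested.

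Whether libraries with 1 replicate number belong together cannot be told from these values, since wild-type pairs with different numbers correlated from -0.561 to 0.596. Deviations of libraries with 1 number correlated between -0.506 and 0.479 over 24 pairs in the wild type and between -0.0582 and 0.078 over 3 pairs in the Rag2 strains. In the wild type their mean was 0.0527, against -0.0122 for the other pairs. With the number as a replicate block, 20 of the 45 genes were called at day 3, 16 of them among the 20 called without it, and 1 at day 7. Of all tested genes, 8.53% were called higher at day 3 and 3.59% at day 7 with the block.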
